A study of Mus musculus with 12 samples.

Results

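The regions described here are CpG-dense stretches of mouse DNA with a low level of 5-hydroxymethylcytosine (5hmC) in control retina and a lower level in Tet mutant retina. They were selected on the deposited bACE-seq region list, from the number of CpGs listed per base and the mean 5hmC level of each group: at least 5 listed CpGs per 100 bp, a Cre- level below 10% and a Tet tcKO level below the Cre- level, on the 19 autosomes. The rule found 19456 regions among 592906 in the bACE-seq list and among 582238 autosomal regions with a lower 5hmC level in Tet tcKO, the 5hmC losses. Because the 5hmC levels and the CpG density chose these regions, both are given as description, whereas the position in the genome, the sequence content other than CpG and the WGBS levels were not part of the rule.

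Genomic DNA of whole retinas from P21 C57 BL/6J mice was compared between Cre- controls, labelled wild type, and Tet tcKO mice, in which floxed Tet1, Tet2 and Tet3 were deleted in retinal progenitors by a Chx10-Cre-GFP transgene. The transgene is known to be mosaic, and Cre-positive in-crosses were used to counter this. Whole retina also holds cells from outside the Chx10 lineage, so the mutant DNA is a mixture. Each group had 3 libraries of WGBS, which reads 5-methylcytosine (5mC) and 5hmC together, and 3 of bACE-seq, which reads 5hmC alone, for 12 libraries in all. The lists hold 1 mean level per group and region, so no spread between animals, error or p-value could be given, and the depth of each library was not analysed here. All values below are therefore descriptions, and a lower or higher level means a difference of 2 group means.

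TET enzymes oxidise 5mC to 5hmC, which is abundant in neurons and can be a step towards the unmodified base. CpG-dense sequence is unusual in mammalian genomes, where methylated CpGs are lost over evolutionary time. Most CpG islands at gene start sites are unmethylated, whereas the germline-gene islands, the imprinted control regions and the long terminal repeats and other young repeats are CpG-dense sequences that are kept methylated in somatic tissue.

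The sequences below show the range of single-copy members and were read from the GRCm38 (mm10) reference. They were taken from the regions named by rule that touch no untranslated exon and are at most 300 bases long. Each is printed from the first listed CpG through the last, 5′ to 3′ on the plus strand, with CpGs in capitals. The first overlaps the coding exon of the eye field factor Six6, the next a coding exon of the stress-response gene Gadd45b, the third upstream of Hoxc12, which patterns the posterior body axis, and the last far from any gene, on one of the WGBS gains with the 5 largest differences.

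Six6 coding exon, chr12:72940362-72940486: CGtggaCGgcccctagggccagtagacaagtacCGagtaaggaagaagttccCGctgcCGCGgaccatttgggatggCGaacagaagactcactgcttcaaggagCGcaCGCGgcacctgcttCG
Gadd45b, chr10:80931196-80931328: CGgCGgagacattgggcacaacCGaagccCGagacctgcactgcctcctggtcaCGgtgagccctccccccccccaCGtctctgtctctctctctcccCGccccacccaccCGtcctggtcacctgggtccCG
upstream of Hoxc12, chr15:102935220-102935342: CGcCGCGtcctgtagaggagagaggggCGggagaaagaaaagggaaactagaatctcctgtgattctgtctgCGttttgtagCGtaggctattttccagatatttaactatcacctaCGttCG
intergenic, nearest start site Gm34322, chr9:61645930-61646171: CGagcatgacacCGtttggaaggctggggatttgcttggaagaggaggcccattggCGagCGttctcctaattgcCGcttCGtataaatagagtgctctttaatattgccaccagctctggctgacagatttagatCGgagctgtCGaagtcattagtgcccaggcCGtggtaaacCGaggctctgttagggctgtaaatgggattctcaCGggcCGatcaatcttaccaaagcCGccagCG

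The 19456 regions covered 2704 kb and 179819 CpGs. Their median length was 90 bp, against 524 bp for all autosomal 5hmC losses, and their median number of CpGs was 6, with a range of 4 to 367. Every region starts and ends on a CpG, so a short one reaches the density threshold with few CpGs. Weighted by CpGs, Cre- retinas had 5.66% 5hmC and Tet tcKO retinas 1.55%, so 27.3% of the control level was kept. Over all autosomal 5hmC losses the levels were 16.2% and 3.88%, and 24.02% was kept. The CpG-dense losses with a Cre- level of at least 10%, 7294 regions, kept 31.7%, and the CpG-poor losses with a Cre- level below 10%, 113479 regions, kept 21.3%. The Tet tcKO levels of those groups were 4.73% and 1.71%. Unmodified cytosines that fail to convert add to both levels, and the study's own estimate of their rate, from a spiked-in plasmid, is no lower than the Tet tcKO level of these regions. What was left in Tet tcKO, and with it the share kept, therefore cannot be told apart from failed conversion. With 1 point taken from every level, less than that estimate, the share kept was 11.7% in these regions and 19.01% over all autosomal 5hmC losses. It was 26.7% in the CpG-dense and 10.1% in the CpG-poor comparison group. The order of these regions and all losses turned, but a fixed point takes a larger part of the low levels that the rule asked for. In 6083 of these regions the Tet tcKO level was below 1%, so it became negative.

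Within the group, the Cre- level had a median of 6.01% and a range from the 10th to the 90th percentile of 2.98% to 8.98%. The Tet tcKO level had a median of 1.46% and ran from 0.464% to 2.96%. The level was below 1% in Tet tcKO in 6083 regions (31.3%), against 7.92% of all autosomal 5hmC losses and 24.4% of the CpG-poor losses of low level. The rule asked for a low Cre- level, which the group shares with the CpG-poor losses of low level. At least 50% of the control level was kept in 187 of the 19456 regions. The counts were 987 of 582238 for all autosomal 5hmC losses and 320 of 7294 for the CpG-dense losses of higher level.

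**Figure D1:**
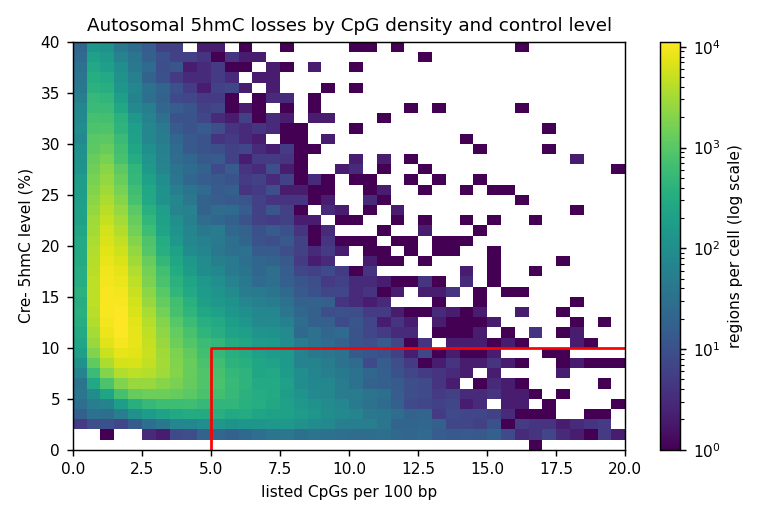
Autosomal 5hmC losses by listed CpGs per 100 bp (x axis, cut at 20) and Cre- 5hmC level in percent (y axis, cut at 40), with colour for the number of regions on a log scale. The red lines bound the 19456 CpG-dense regions with a level below 10%, which lie at the edge of the main cloud.

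Within the group, where the rule had capped the level, the Cre- level was lower in the denser strata. It was 6.29% at 5 to 6 CpGs per 100 bp (7428 regions), 5.75% at 6 to 8 (7935), 4.88% at 8 to 10 (2601) and 3.89% at 10 or more (1492). The Tet tcKO levels of the same strata were 1.69%, 1.57%, 1.39% and 1.14%. The share kept differed less, from 26.9% in the sparsest to 29.2% in the densest stratum. The CpG-dense losses of higher level ran the other way, with 14.5%, 14.7%, 15.6% and 18.3% in Cre- over the same strata.

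**Figure D2:**
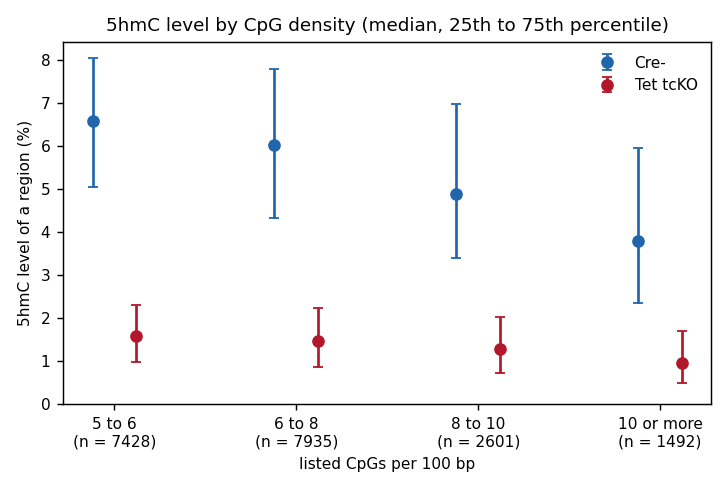
Median 5hmC level in percent (points) with the 25th to 75th percentile over regions (bars, not replicate error) in Cre- and Tet tcKO, by listed CpGs per 100 bp. The Cre- median is 6.58% in the sparsest stratum and 3.79% in the densest, and the Tet tcKO median is below the Cre- 25th percentile in each of the 4 strata.

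At the density threshold, the 1043 regions with 5.0 to 5.1 CpGs per 100 bp had Cre- and Tet tcKO levels of 6.52% and 1.73%, and the 757 losses with 4.9 to 5.0 had 6.64% and 1.76%. At the level threshold, the 176 regions with a Cre- level of 9.9% to 10% had a Tet tcKO level of 2.86%, and the 175 CpG-dense losses with 10% to 10.1% had 2.98%. The values on both sides of each threshold lay close together.

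Start sites held more of these regions than of 5hmC losses in general, although most lay elsewhere. Within 2 kb of an annotated start site lay 2656 of 19456 (13.7%), against 9.11% of all autosomal 5hmC losses. The share was 6.27% in the CpG-dense losses of higher level and 8.39% in the CpG-poor losses of low level. The excess was closest to the start site: 4.13% of the regions had their midpoint within 250 bp, against 0.780% of the other losses. Beyond 5 kb lay 15317 regions (78.7%). The level was lower near start sites, with a median of 3.17% in Cre- and 0.785% in Tet tcKO within 250 bp and of 6.05% and 1.41% beyond 20 kb.

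**Figure D3:**
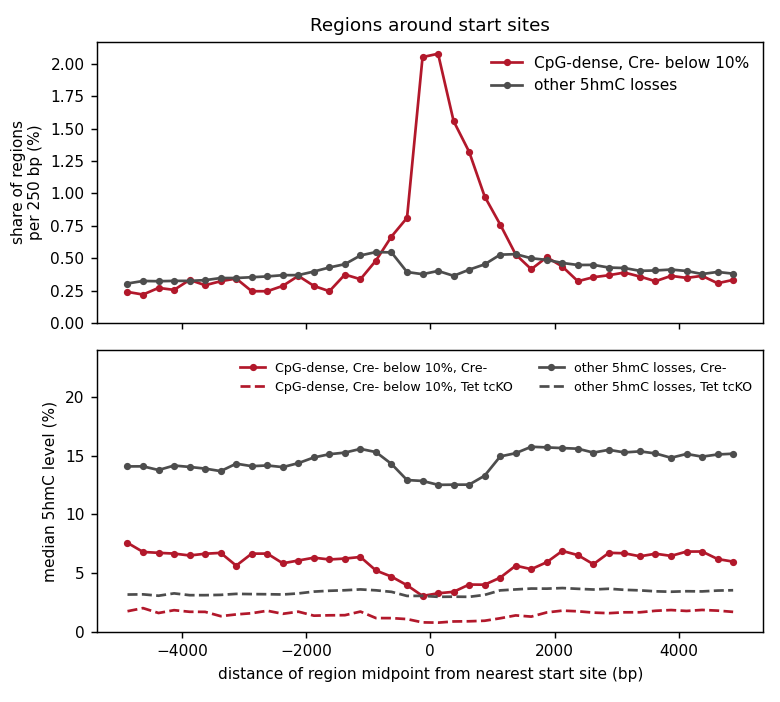
Share of regions per 250 bp (top, percent) and median 5hmC level (bottom, percent; solid Cre-, dashed Tet tcKO) by distance of the midpoint from the nearest start site in bp, negative upstream, for the CpG-dense regions and the other 5hmC losses. The CpG-dense regions peak at the start site, where their Cre- level is lowest, while the other losses dip there.

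On a CpG island, computed from the reference as at least 200 bp with a GC share of at least 50% and an observed over expected CpG ratio of at least 0.6, lay 6430 regions (33.0%), against 6.75% of all autosomal 5hmC losses. The rule asks for dense CpGs, so this share is partly fixed by it. Many of the 6430 were repeated sequence. In 2964 (46.1%) the central 31 bases occurred more than once on the autosomes. In 2994 (46.6%) at least 50% of the bases were soft-masked as repeats. The CpG-dense losses of higher level lay on an island in 9.14% of cases. Only 1505 of the 6430 island regions were within 2 kb of a start site, where the Cre- level was 4.19%, against 5.76% in the 1151 start site regions off islands. Coding exons held 2990 regions (15.4%, against 11.96% of all autosomal 5hmC losses), and these kept 30.5% of the Cre- level. No annotated gene overlapped 9212 regions (47.3%, against 37.9%).

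Repeated sequence was a large part of the group. The central 31 bases of 6446 regions (33.1%) occurred more than once on the autosomes, against 7.68% of all autosomal 5hmC losses, 20.5% of the CpG-dense losses of higher level and 11.2% of the CpG-poor losses of low level. They occurred 1000 times or more for 1472 regions (7.57%, against 1.85% of all autosomal 5hmC losses). In 7148 regions (36.7%, against 10.9%) at least 50% of the bases were soft-masked as repeats in the reference. A 20-base stretch was shared with another region of the group by 7693 (39.5%), and 6688 of these were mostly soft-masked. Reads from such sequence can be placed at the wrong copy, and the part of this in the levels was not tested.

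Next are shown 3 stretches of 20 bases held by many regions, each with mostly different carriers, and 3 regions of repeated or simple sequence. They come from the same reference, with CpGs in capitals. A shared stretch is written on the strand that sorts first in the alphabet.

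shared stretch 1: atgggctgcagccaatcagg
shared stretch 2: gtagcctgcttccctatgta
shared stretch 3: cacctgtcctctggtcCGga
intergenic, nearest start site Olfr459, chr6:41807548-41807662: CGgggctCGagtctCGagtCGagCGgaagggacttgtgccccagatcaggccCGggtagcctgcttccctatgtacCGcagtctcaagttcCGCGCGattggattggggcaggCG
intergenic, nearest start site Gm21833, chr16:83317694-83317978: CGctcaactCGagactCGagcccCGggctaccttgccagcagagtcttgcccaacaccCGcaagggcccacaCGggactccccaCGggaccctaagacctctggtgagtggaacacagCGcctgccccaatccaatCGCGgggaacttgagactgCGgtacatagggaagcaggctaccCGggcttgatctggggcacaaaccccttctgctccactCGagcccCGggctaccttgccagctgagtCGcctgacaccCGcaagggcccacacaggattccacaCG
Gm36235, chr12:16015522-16015623: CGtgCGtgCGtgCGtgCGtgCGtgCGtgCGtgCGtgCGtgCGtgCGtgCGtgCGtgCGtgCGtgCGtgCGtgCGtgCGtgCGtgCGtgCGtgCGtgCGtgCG

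The first stretch was in 701 regions on all 19 autosomes, with a median Cre- level of 4.82% (1.94% to 9.99%) and a median Tet tcKO level of 1.21% (0.120% to 4.48%). All 701 were mostly soft-masked, 429 lay on a computed island and 9 within 2 kb of a start site. The second was in 404 regions, at 4.74% and 1.20%, and is found forward in the region near Olfr459 and reversed in the one near Gm21833. The last was in 255 regions, at 4.104% and 0.993%. Copies of a stretch therefore spread over most of the range of levels that the rule allows. The region near Gm21833 kept 1.94% of its control level and that near Olfr459 kept 57.8%, so carriers of the same stretch were among the lowest and the highest shares kept.

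Divided into groups that do not overlap, 2656 regions lay at a start site, 6203 were repeated sequence away from start sites, 6220 were single-copy in a gene body and 4377 were single-copy between genes. Their Cre- levels were 4.55%, 5.24%, 6.48% and 6.20%, and their Tet tcKO levels 1.27%, 1.30%, 1.91% and 1.65%. The repeated group kept 24.9% and the gene body group 29.5%.

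WGBS measured 5mC and 5hmC together and was not used by the rule. A WGBS gain, a listed region with a higher level in Tet tcKO, overlapped 1802 of the 19456 regions (9.26%), against 24.4% of all autosomal 5hmC losses and 8.90% of the CpG-poor losses of low level. Of the 1802, 64 shared 1 bp only. A WGBS loss overlapped 184 regions (0.946%), against 0.135% and 0.211%. Longer regions meet another region more often, so the shares were also set side by side by length. At 51 to 100 bp a gain overlapped 7.68% of these regions and 12.6% of the other losses. At 101 to 200 bp the shares were 9.36% and 10.5%, at 201 to 500 bp 11.4% and 13.5%, and above 500 bp 31.2% and 35.2%. The CpG-poor losses of low level had 7.15%, 6.68%, 7.22% and 13.8% over the same lengths, below the CpG-dense regions in each. Among regions whose central 31 bases occur once, the CpG-dense regions were above the other losses at 101 to 200 bp (12.7% and 11.4%) and at 201 to 500 bp (16.8% and 14.04%), so the direction of the gap in gains depended on length and on repeated sequence. A WGBS loss overlapped 0.434% of these regions and 0.171% of the other losses at 51 to 100 bp, the class with 11521 of the regions, 1.05% and 0.126% at 101 to 200 bp, 1.43% and 0.0742% at 201 to 500 bp, and 8.23% (48 of 583 regions) and 0.123% above 500 bp.

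**Figure D4:**
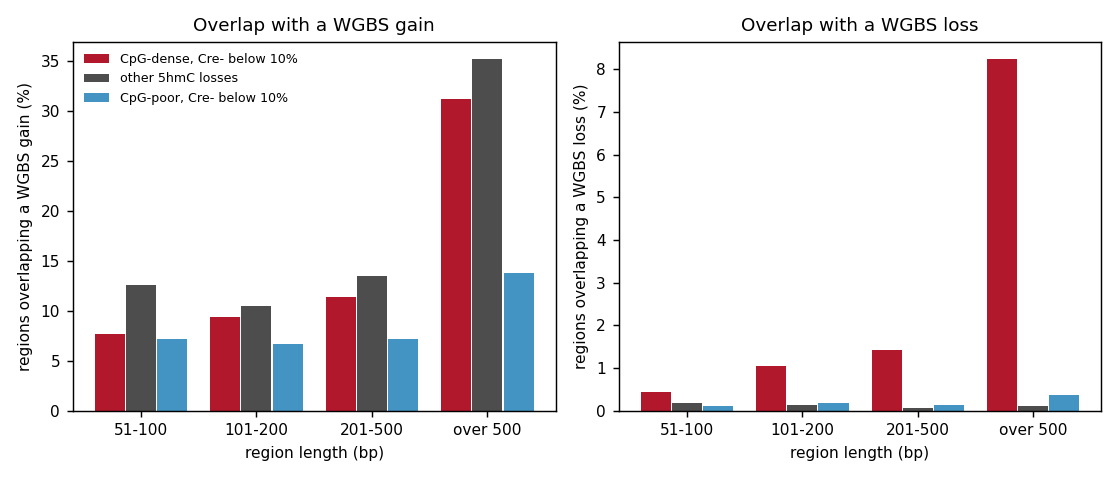
Share of regions (percent) that overlap a WGBS gain (left) or a WGBS loss (right) by at least 1 bp, by region length in bp, for the CpG-dense regions, the other 5hmC losses and the CpG-poor losses of low level. Gains overlap 31.2% and losses 8.23% of the CpG-dense regions over 500 bp.

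The WGBS gains on these regions had a CpG-weighted level of 34.3% in Cre- and 48.1% in Tet tcKO, a difference of 13.8 points. Those on all autosomal 5hmC losses went from 58.1% to 75.6%. The 1802 CpG-dense regions on a gain had 6.02% 5hmC in Cre- and 1.80% in Tet tcKO. The opposite signs follow from the rule and from the definition of a gain. The WGBS levels are over whole gains, of median length 386 bp, and the 5hmC levels over the regions only. The sizes of the 2 differences were therefore not compared. At start sites the gains had medians of 19.2% and 31.6%, and 18.8% of the start site regions overlapped one. In repeated sequence away from start sites 3.45% overlapped a gain, and those gains had medians of 85.8% and 92.7%. The WGBS losses on the group had a level of 40.5% in Cre- and 30.7% in Tet tcKO.

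The regions on the gains with the largest differences included photoreceptor genes. A coding exon region of Rbp3, the retinoid carrier of the photoreceptor matrix (chr14:33955417-33956110, 36 CpGs), had 6.17% 5hmC in Cre- and 2.38% in Tet tcKO, on a gain from 28.2% to 72.4% over 179 CpGs. A region over the 5′ untranslated and coding exon of Rcvrn, the calcium sensor recoverin (chr11:67695368-67695700), had 7.48% and 3.78%, on a gain from 31.7% to 72.3%. The region at the start site of Hsf5, a heat shock factor family gene (chr11:87616055-87618058), had 8.33% and 2.61%, and adjoined a gain of 6 CpGs, from 23.2% to 67.1%, with which it shared 1 bp. A coding exon region of Ctnnd2, a neuronal catenin (chr15:30645741-30648012), had 8.80% and 2.26% and shared 252 of its 2272 bp with a gain of 7 CpGs, from 32.4% to 74.9%. The intergenic region nearest to Gm34322, printed above, had 7.05% and 2.85%, on a gain from 31.6% to 72.1%.

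Among the regions on the WGBS losses with the largest differences, simple and repeated sequence recurred. The region at the start site of the noncoding Gm36235, printed above, had 4.62% and 1.19% 5hmC, on a loss from 66.5% to 24.2%, and its central 31 bases occurred 1175 times. A region near Tlx1os (chr19:45163888-45164015) had 8.15% and 1.32%, on a loss from 58.2% to 27.5%, with a central sequence found 1053175 times. A region near Trim43b (chr9:89066449-89067303) had 3.93% and 0.820%, on a loss from 75.5% to 44.4%, with 2 copies. The single-copy ones were the Six6 coding exon, at 1.69% and 0.208% with 47 bp on a loss from 34.0% to 12.5%, and an intron of Ssbp4 (chr8:70601163-70601639), at 6.90% and 1.72% on a loss from 29.3% to 11.8%.

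The regions with the largest summed loss, the number of CpGs times the difference, overlapped coding exons. The longest was at Tmem200b and the noncoding Gm12992 (chr4:131916970-131923841, 6872 bp, 367 CpGs), with 9.35% in Cre- and 2.46% in Tet tcKO. It met a WGBS loss of 248 CpGs, from 25.2% to 15.2%, and 3 WGBS gains. Among these gains was an adjoining one of 12 CpGs, from 30.97% to 54.4%, with which it shared 1 bp. Regions over coding exons of Zfp316, a zinc finger gene (chr5:143251523-143255633, 316 CpGs), Sema6c, a semaphorin (chr3:95171756-95174085, 180 CpGs), Zfp865 (chr7:5028697-5032179, 227 CpGs), Lrrc4b, a synaptic adhesion gene (chr7:44460743-44464081, 187 CpGs), and Apba1, a neuronal adaptor (chr19:23891437-23894839, 218 CpGs), had Cre- levels of 8.05%, 9.92%, 8.20%, 9.58% and 8.16%. Their Tet tcKO levels were 2.52%, 2.35%, 2.36%, 2.80% and 2.53%. In the same order they overlapped 3, 1, 0, 2 and 2 WGBS gains, and none overlapped a WGBS loss. By CpGs, Dact3, a Wnt pathway regulator (chr7:16884467-16887736, 242 CpGs), also ranked among the first 4, with 7.32% and 2.62%.

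Of the regions with at least 10 CpGs, the smallest share was kept in an intron of A230057D06Rik (chr7:61794701-61794896), at 5.05% and 0.0763%, followed by an intron of Ano4 (chr10:89196557-89196749), at 4.83% and 0.0866%. The largest share, 64.3%, was kept in an intron of Dnah7b, an axonemal dynein (chr1:46089079-46089180), at 8.39% and 5.39%, followed by a coding exon of Chrna10, a nicotinic receptor subunit (chr7:102113278-102113355), at 6.75% and 4.15%.

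Genes were then compared by 11 lists. Among protein-coding genes on the autosomes, 2041 of 20780 (9.82%) had a region of the group within 2 kb of a start site, and of the 12282 with a start site on an island 1490 (12.1%) had one. Imprinted genes, expressed from 1 parental allele, had one in 15 of 24, and in 13 of the 20 with an island start site. Germline genes whose start sites are methylated in somatic tissue had one in 9 of 20. Transcription factors of other lineages had one in 13 of 36, and those of retinal progenitors and neurons in 9 of 30. The count was 3 of 17 for rod phototransduction, 2 of 15 for photoreceptor transcription factors, 2 of 22 for DNA methylation and demethylation, 2 of 39 for Hox genes and 1 of 31 for proteasome subunits. No region was found for the 45 ribosomal protein genes or the 9 cone phototransduction genes. Some 5hmC loss lay within 2 kb of a start site in all 45 and in 8 of 9, against 81.6% of protein-coding genes. The counts with any 5hmC loss were lower for Hox genes, 4 of 39, and for factors of other lineages, 18 of 36.

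**Figure D5:**
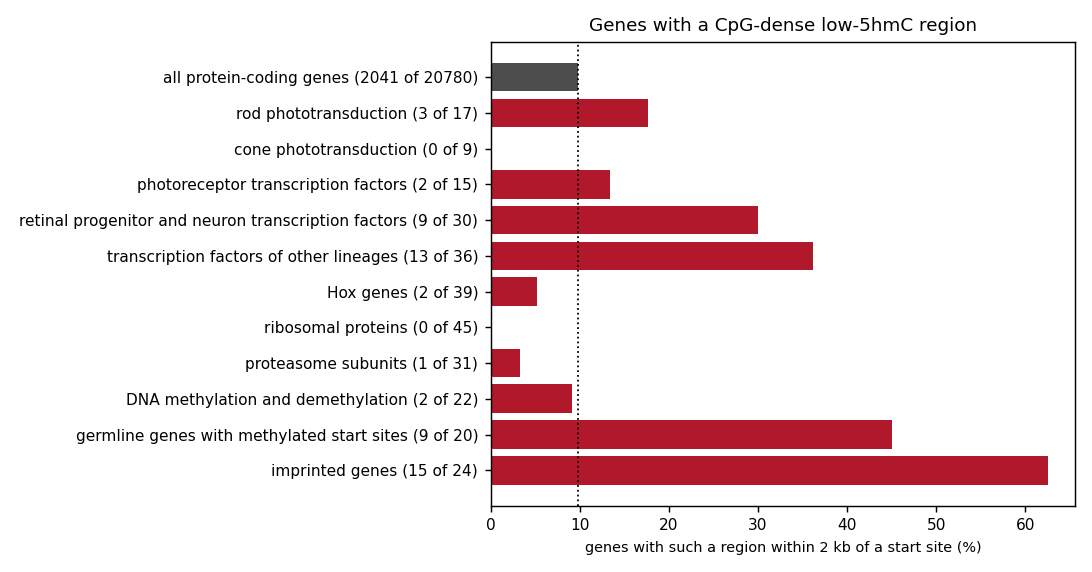
Share of the autosomal genes of each list (percent, counts in brackets) with a CpG-dense low-5hmC region within 2 kb of a start site, with the share of all protein-coding genes, 9.82%, as a dotted line. Imprinted and germline genes have the highest shares of the 11 lists.

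The 24 regions at imprinted genes had a median Cre- level of 3.00% and a median share kept of 34.9%, with 5 on a WGBS gain (20.8%) and 4 on a WGBS loss (16.7%). Over the 2202 regions at protein-coding genes the shares were 18.7% and 2.68%. At Gnas, which encodes a G protein subunit from an imprinted cluster (chr2:174327307-174329432, 179 CpGs), the levels were 6.39% and 1.98%, on a WGBS gain from 37.0% to 44.4% and a loss from 51.2% to 42.3%. At Zrsr1, a splicing factor gene (chr11:22971545-22972534), they were 6.99% and 2.15%, on a gain from 46.6% to 55.4% and a loss from 52.4% to 45.5%. At Inpp5f (chr7:128687884-128688728) they were 5.28% and 1.36%, on a gain from 37.97% to 48.4%.

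The 9 regions at germline genes had a median Cre- level of 3.94% and a median share kept of 31.05%. A WGBS gain or loss was met by 0 of 9, although 8 of the 20 germline genes had a gain within 2 kb. The start site of Ddx4, the germ cell RNA helicase (chr13:112651923-112652468, 67 CpGs), had 3.36% and 1.04%. Mael, a piRNA pathway gene (chr1:166238384-166239286), had 4.64% and 1.39%, and Tdrd1, a Tudor domain gene of the same pathway (chr19:56825597-56826707), had 7.67% and 2.37%.

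The 18 regions at retinal progenitor and neuron factors had median levels of 2.18% and 0.377%, against a Cre- median of 3.82% at protein-coding genes. Their median share kept was 17.2%, near the 17.3% at factors of other lineages, against 25.7% at protein-coding genes. Over the whole group the median share kept was also lower at lower Cre- levels. It was 20.4% at a Cre- level below 2.5% and 24.7% at 2.5% to 5%. The part of the level in the gap between the lists was not tested. Prox1 (chr1:190172527-190173198) had 5.15% and 0.998% on a gain from 10.1% to 28.0%, Sox2 (chr3:34648658-34649297) had 2.59% and 0.270%, and Six3 (chr17:85621816-85622315) had 1.98% and 0.464% on a loss from 23.8% to 13.9%. The 20 regions at factors of other lineages had medians of 2.63% and 0.528%. None met a WGBS gain or loss, against 18.7% and 2.68% of the regions at protein-coding genes. Of the 36 genes of this list, 7 had a gain within 2 kb. Among the 20 regions, Wt1, a kidney and gonad factor (chr2:105126542-105126993), had 1.51% and 0.210%, and Hand1, a heart factor (chr11:57831206-57831688), had 4.11% and 1.00%. Sox10, a neural crest factor (chr15:79163214-79163536), had 3.64% in Cre- and kept 31.6% of it. The Hox regions were at Hoxc12, printed above, with 1.19% and 0.143%, and at Hoxb3 (chr11:96344053-96344157), with 1.60% and 0.304%.

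At the photoreceptor lists, Gucy2e, a guanylate cyclase of the outer segment (chr11:69236148-69236639), had 3.60% and 1.25% on a gain from 11.2% to 23.4%. Otx2, which specifies photoreceptors (chr14:48662082-48662385), had 2.92% and 0.498% on a gain from 21.4% to 40.9%, and Samd11 (chr4:156254602-156254731) had 4.27% and 1.08%. The 3 rod regions met a WGBS gain, and all 17 rod genes had a gain within 2 kb, with or without such a region. So did 8 of 9 cone phototransduction genes, all 15 photoreceptor transcription factors and 52.6% of protein-coding genes. At Tet1 itself, 1 of the 3 floxed genes, a coding exon region (chr10:62879540-62880007) had 5.29% and 0.718%, at Gadd45b 4.297% and 1.10%, and at the proteasome gene Psma1 (chr7:114275847-114276009) 1.73% and 0.459%.

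Short motifs were counted on both strands in 300 bp around each midpoint, and beside them in 31396 autosomal RefSeq promoters of 300 bases (GRCm38). The GC box GGGCGG, bound by Sp factors, was in 19.3% of the group, 5.51% of all autosomal 5hmC losses and 36.0% of promoters. Among the regions at start sites it was in 37.3%. The cAMP response element TGACGTCA was in 2.41% of the group, 0.425% of all losses and 1.83% of promoters, and in 6.24% of the repeated regions away from start sites against 0.579% of the single-copy gene body ones. The ETS motif CCGGAAG was in 4.05%, 1.77% and 9.004%, the E2F motif TTCGCGC in 0.694%, 0.122% and 1.60%, the E-box CACGTG in 8.28%, 5.79% and 7.14%, and the NRF1 motif GCGCATGC in 1.45%, 0.782% and 2.70%, each in that order. All 6 hold a CpG, which the rule favours. In the CpG-dense losses of higher level the E-box was in 8.39% and the NRF1 motif in 2.30%, and the rest were less frequent than in the group. The photoreceptor motif TAATCC, bound by Crx and Otx2 and without a CpG, was in 7.31% of the group, 14.7% of all losses and 7.06% of promoters. It was in 17.7% of the CpG-dense losses of higher level and 10.2% of the CpG-poor losses of low level. The median GC share of the 300 bp was 51.7% in the group and 46.3% over all losses, and its part in the motif counts was not tested. The 7 motifs were counted separately, and a match is a description of the letters only.

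For 11814 (60.7%) the nearest other 5hmC loss lay within 1 kb, against 64.7% of all autosomal 5hmC losses, and it had the higher Cre- level in 83.1% of these, with a median of 10.2% against 6.24%. Its median density was 2.31 CpGs per 100 bp against 6.44. For the CpG-poor losses of low level the neighbour was higher in 78.5%, and a low level was part of the rule for both.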

How the data were processed

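Whole P21 retina DNA was profiled by WGBS and bACE-seq in 3 Cre- and 3 Tet tcKO libraries per assay. The authors trimmed reads with Trim Galore 0.4.4, aligned them to mm10 with Bismark 0.18.2, extracted calls with MethylDackel 0.6.1 and called regions with DSS on all libraries of a group. Versions are from the submitters' processing notes. The deposited lists give each region's mean methylation level per group as a fraction, shown here in percent, with its length and number of CpGs, 592906 regions for bACE-seq and 193836 for WGBS. The group of each level was read from the order of names in the list titles. The authors' own difference and area statistic columns were not used. DSS was run with smoothing along the sequence, so neither a region's edges nor its level is exact. How far this changed the levels of short regions was not tested.

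Levels were weighted by CpGs. Genes came from GENCODE M21, and islands, repeats and sequence from GRCm38 without coordinate conversion. Listed CpGs equalled the reference count in 97.6% of the regions and never exceeded it. Overlap meant at least 1 bp. Counts were made with Python, numpy and pandas and checked on simulated regions. No test was run, since there is 1 value per group. The regions, gene lists and motifs were chosen with earlier results of these data known. The regions named, outside chromosome 18, were the 6 with the largest summed loss, the 4 with the most CpGs, the 5 on the largest WGBS gains and the 5 on the largest losses, the 4 with the smallest and the 4 with the largest share kept (each of the last 4 sets with at least 10 CpGs), and per gene list the 3 genes with the most CpGs in a region within 2 kb. Alternatives changed the thresholds, weighting, overlap, start site distance and island definition. One named region and one shared stretch of sequence are not reported here.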

Additional observations from a re-analysis of the deposited data

How the results depend on the processing

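No paired analysis was possible because the lists hold group means only, and for the same reason no library could be left out. The conditions that follow changed 1 choice each. With at least 10 CpGs, 4806 regions were left, which kept 27.8% of the Cre- level, and 13.8% met a WGBS gain, 2.476% a WGBS loss, 22.1% a start site and 64.6% an island, against 39.3%, 0.199%, 12.02% and 12.1% of all autosomal 5hmC losses with as many CpGs. With at least 8 CpGs per 100 bp, 4093 were left, with 28.7%, 10.2%, 1.34%, 20.4% and 52.0% in the same order. With a Cre- level below 5%, 6847 were left, with 24.8%, 8.84%, 1.69%, 23.3% and 56.2%. Without repeated central 31 bases, chosen after seeing the data, 13010 were left, with 28.4%, 11.96%, 0.884%, 18.5% and 26.6%. All autosomal 5hmC losses without repeated central 31 bases had 24.08%, 25.3%, 0.112%, 9.24% and 5.95%. A difference of at least 5 points left 6870 regions. The share kept was 26.8% with each region counted once and 11.7% with 1 point subtracted from both levels, below the 19.01% of all autosomal 5hmC losses. With at least 50% of the region covered, 7.19% met a WGBS gain and 0.586% a loss, the latter against 0.0484% of all autosomal 5hmC losses. With WGBS differences of at least 10 points the shares were 4.89% and 0.221%, against 20.9% and 0.0656% of all autosomal 5hmC losses. A start site lay within 1 kb for 10.4% and within 5 kb for 21.3%, against 5.63% and 17.8% of all losses. On islands of at least 500 bp with a GC share of at least 55% and a ratio of at least 0.65 lay 8.03%, against 1.147% of all autosomal 5hmC losses. With 50% covered, the share on a WGBS gain over all autosomal 5hmC losses was 8.58%, close to that of the group, whereas with at least 10 CpGs the difference was wider.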

Other observations

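The X chromosome was outside the rule. By the same thresholds it held 809 of its 10313 5hmC losses (7.84%), against 3.34% of the autosomal ones, with 4.47% in Cre- and 1.03% in Tet tcKO, so 23.0% was kept. The sex of the animals was not used.

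Among autosomal regions with a higher 5hmC level in Tet tcKO, 81 of 194 were CpG-dense with a Cre- level below 10%. They had 3.18% 5hmC in Cre- retinas and 10.8% in Tet tcKO retinas. An island held 46 of them, 12 lay within 2 kb of a start site and 44 had a central sequence that occurred more than once.

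The regions were spread evenly over the autosomes, from 8.58 per 10000 CpGs on chromosome 12 to 10.2 on chromosome 18, and the share kept ran from 25.4% on chromosome 18 to 28.6% on chromosome 7.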
